A study of Rattus norvegicus with 8 samples.

Results

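Levels of 10 genes of the Wnt pathway were followed in rat adipose-derived stem cells and in adipocytes made from them. The genes were the secreted frizzled-related proteins Sfrp1, Sfrp2 and Sfrp4, the dickkopf proteins Dkk2 and Dkk3, the ligands Wnt5a and Wnt11, the nuclear factors Lef1 and Tcf7l2, and the pathway target Axin2. Each was chosen by its symbol as a family member or standard readout of the pathway. The choice was made with earlier results of these data known, so counts of calls among them are not an independent test. Each had 1 entry in both deposited tables, so all 10 were measured at both stages. They are 10 of the 18513 genes listed in either table, of which 14018 were in both.

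Inguinal fat of wild-type Wistar rats was the source of the cells. The animals were kept for 6 months on either the control diet, called C, or a diet rich in fat and sucrose, called HFS; their age was not given. The stem cells, mesenchymal precursors of fat cells called ASC here, were released with collagenase and grown in culture. Adipocytes (AD) were the same kind of culture after 3 days with dexamethasone, IBMX and insulin, which start fat cell formation, and 7 days with insulin. The groups ASC_C, ASC_HFS, AD_C and AD_HFS had 2 libraries each. Nothing in the labels tells whether both libraries of a group stand for different rats or for different dishes, so every p below measures only the spread between these samples, which may be technical.

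Wnt proteins are secreted ligands that bind frizzled receptors at the cell surface. In the canonical branch this keeps beta-catenin from being degraded, and beta-catenin then joins factors of the TCF/LEF family in the nucleus to switch on targets such as Axin2, which in turn dampens the signal. SFRPs bind Wnt ligands and dickkopf proteins act on the LRP co-receptors, although Dkk3 is a divergent member with no settled place in the pathway. In adipose tissue, canonical Wnt signalling is known as a brake on the differentiation of precursors into fat cells.

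Recovered reads ranged from 992618 to 7290961 in the ASC libraries and from 76083827 to 119555051 in the AD libraries, and the shallowest was ASC_HFS replicate 2. Against counting error alone, the 2 AD_HFS libraries were much closer to each other than the 2 AD_C libraries, with a median chi-square, over genes with at least 20 reads in the pair, of 1.59 and 26.3 where counting alone gives 0.455; ASC_C had 4.47 and ASC_HFS 1.87. No pair agreed within sampling noise, so each library was counted. Levels are given as normalized counts, which are reads divided by the library's size factor within 1 table. A floor of 3 reads corresponded to 10.9 normalized counts in ASC_HFS replicate 2, to between 1.34 and 2.78 in the other ASC libraries and to between 2.44 and 3.80 in AD. Log2 differences refer to log2(deposited value + 1), a variance-stabilized scale that is compressed at few reads, so the ratio of mean normalized counts is given beside them. Normalized counts are not divided by transcript length, and levels are therefore not ranked between genes.

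In ASC, HFS went with less Sfrp1, Sfrp2 and Dkk3 and more Sfrp4 and Wnt11. These 5 of the 10 genes passed limma-trend with an adjusted p below 0.05, 3 lower and 2 higher. In AD, 0 of the 10 passed limma-trend or limma-voom, against 3 at an unadjusted p below 0.05 in each. The diet difference of Sfrp1 itself differed between the stages, and that of the other 9 genes did not pass the test. Over all genes, 9.41% of the 14295 tested in ASC were called higher in HFS and 9.7% lower, and in AD 1.31% of 18236 were called higher and 0.0329% lower. The median log2 difference of the 10 genes was 0.12 in ASC, where that of all genes was -0.04, and -0.00 in AD, where that of all genes was -0.01.

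**Figure D1:**
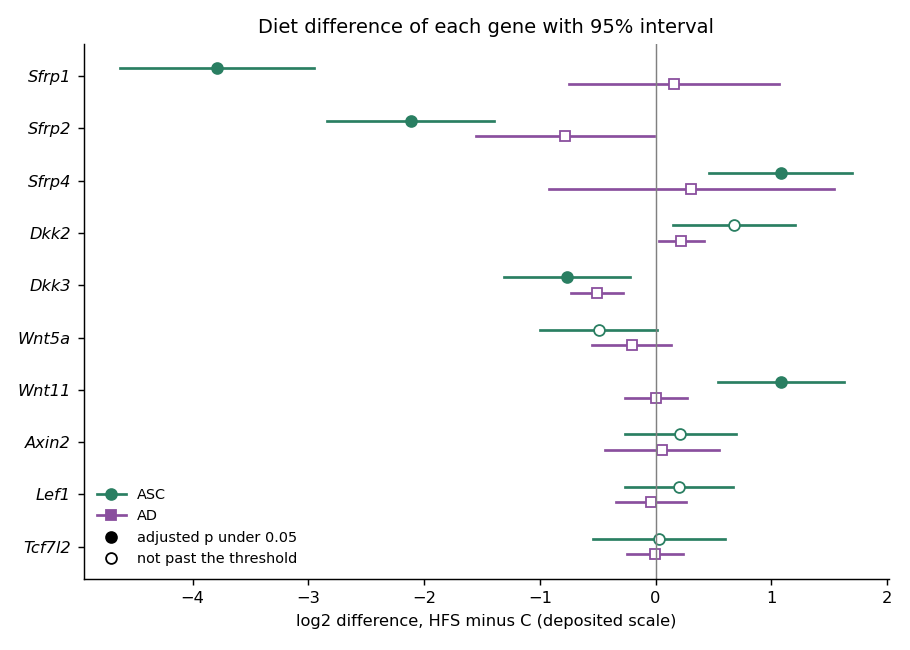
Log2 difference of HFS minus C for each of the 10 genes, on the scale of log2(deposited value + 1), with circles for ASC, squares for AD and bars for the 95% interval from limma-trend; filled symbols passed an adjusted p of 0.05. The ASC symbols of Sfrp1 (-3.79), Sfrp2 (-2.12), Dkk3 (-0.77), Sfrp4 (1.08) and Wnt11 (1.08) are filled, and all AD symbols are open.

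Sfrp1, a secreted antagonist that binds Wnt ligands, fell the most of the 10 genes in ASC. It had 5546 and 2170 normalized counts with the control diet and 145 and 247 with HFS. Both HFS libraries lay far below both controls, although the controls themselves differed. The mean was 19.7-fold lower in HFS, 196 ± 71.6 against 3858 ± 2387 (SD, n = 2 each), a log2 difference of -3.79 (SE 0.389, 95% interval -4.63 to -2.95) with an adjusted p of 5.54e-05. In AD the gene had 15759 and 32558 normalized counts in the C libraries and 25531 and 25140 in the HFS libraries. The HFS libraries lay between the controls, and the log2 difference of 0.16 (SE 0.347, 95% interval -0.75 to 1.06, adjusted p = 0.881) did not pass.

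Sfrp2, a close relative of Sfrp1 with the same kind of ligand-binding domain, also fell in ASC. Its normalized counts were 1293 and 571 in ASC_C and 187 and 120 in ASC_HFS, with no overlap. The mean was 6.08-fold lower, 153 ± 47.7 against 932 ± 511 (SD, n = 2 each), and the log2 difference was -2.12 (SE 0.336, adjusted p = 0.00101). In AD the libraries had 376 and 812 normalized counts with C and 267 and 239 with HFS. Both HFS libraries were again below both controls, at a ratio of 0.426, but the log2 difference of -0.78 (95% interval -1.55 to -0.01) had an unadjusted p of 0.0471 and an adjusted p of 0.350.

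Sfrp4, a secreted antagonist whose level in fat is known to go with insulin resistance, rose in ASC. The controls had 154 and 308 normalized counts and the HFS libraries 510 and 566. The HFS libraries lay close together and above both controls, 538 ± 39.3 against 231 ± 109 (SD, n = 2 each), a ratio of 2.33 and a log2 difference of 1.08 (SE 0.289, adjusted p = 0.0192). So the 3 SFRP genes did not move together: 2 fell and 1 rose. In AD, Sfrp4 had 205 and 834 normalized counts with C and 556 and 624 with HFS. The HFS libraries lay within the wide span of the controls, with an adjusted p of 0.82.

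Dkk3, the divergent dickkopf protein, fell in ASC by a smaller factor and only just passed the test. The libraries had 190 and 104 normalized counts with C and 51.1 and 72.5 with HFS. Both HFS values were below both controls, and the mean was 2.38-fold lower, at a log2 difference of -0.77 (SE 0.254, 95% interval -1.31 to -0.22) and an adjusted p of 0.0491. In AD its values lay close together within each group, 7508 and 7359 normalized counts with C and 5144 and 5205 with HFS. The HFS mean was 1.44-fold lower, 5175 ± 42.7 against 7433 ± 106 (SD, n = 2 each), with a log2 difference of -0.51 (SE 0.0859), an unadjusted p of 0.00236 and an adjusted p of 0.0851. Dkk3 was thus lower in both HFS libraries at both stages and passed the test in ASC, a call lost with quantile normalization (adjusted p = 0.0689).

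Dkk2, a dickkopf protein that binds the LRP co-receptors, was near the limit of counting. In ASC it had 0 and 11 reads with C and 18 and 6 reads with HFS, or 0, 4.93, 11.2 and 21.8 normalized counts. Both HFS libraries were above both controls in normalized counts, but the log2 difference of 0.68 (95% interval 0.15 to 1.20) had an adjusted p of 0.0678. In AD, 2 and 1 reads with C stood against 10 and 7 with HFS, and both HFS libraries were above both controls there too (adjusted p = 0.291). Each control value in AD was under the floor of 3 reads.

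Wnt11, a ligand known mainly for the beta-catenin-independent branch, rose in ASC. Its normalized counts were 13.9 and 22.4 with C and 58.6 and 127 with HFS, from 15, 50, 94 and 35 reads. The lower HFS library was above the higher control, and the ratio of the means was 5.11 (92.8 ± 48.3 against 18.2 ± 6.03, SD, n = 2 each). The log2 difference was 1.08 (SE 0.252, adjusted p = 0.00994). The AD libraries had 84.8 and 85.2 normalized counts with C and 92.1 and 78.9 with HFS, so the controls lay between the HFS values, with a ratio of 1.01 and a 95% interval of the log2 difference from -0.26 to 0.27.

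Wnt5a, another ligand of the beta-catenin-independent branch and linked to inflammation of fat tissue, did not pass at either stage. In ASC it had 42.6 and 30.9 normalized counts with C and 24.9 and 7.25 with HFS, the last from 2 reads. Both HFS libraries were below both controls, with a log2 difference of -0.49 (95% interval -1.0 to 0.01, adjusted p = 0.162). In AD the values were 1859 and 2280 with C and 1746 and 1768 with HFS, also without overlap, and the log2 difference was -0.21 (95% interval -0.55 to 0.13, adjusted p = 0.564).

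Axin2, the usual transcriptional readout of the canonical branch, was scarce in ASC. Its normalized counts there were 5.56 and 4.48 with C and 6.24 and 14.5 with HFS, from 4 to 10 reads per library. The HFS values were above the controls in normalized counts but overlapped them in RPM (reads scaled by library total), and the log2 difference of 0.21 (95% interval -0.27 to 0.69, adjusted p = 0.537) was small beside its error, and a change was not detectable at this depth. In AD the depth was ample: 115 and 216 normalized counts with C and 182 and 164 with HFS. The HFS libraries lay between the controls (log2 difference 0.05, 95% interval -0.44 to 0.55, adjusted p = 0.926).

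Lef1 and Tcf7l2 encode factors through which beta-catenin acts on its targets. Lef1 had 3.71 and 2.69 normalized counts in ASC_C and 6.86 and 7.25 in ASC_HFS, from 2 to 11 reads per library. These lay apart by group, but the difference was not detectable at this depth (log2 difference 0.21, 95% interval -0.26 to 0.67, adjusted p = 0.541). In AD it had 12.7 and 30.8 normalized counts with C and 17.1 and 19.1 with HFS, and the groups overlapped (adjusted p = 0.914). Tcf7l2 had 141 and 205 normalized counts in ASC_C and 226 and 134 in ASC_HFS, so the HFS libraries spanned the controls (log2 difference 0.03, 95% interval -0.54 to 0.60, adjusted p = 0.95). In AD its 4 values, 3430 and 3320 with C and 3302 and 3413 with HFS, overlapped by diet, and the log2 difference was -0.01 with a 95% interval from -0.25 to 0.23.

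Counted by overlap alone, both HFS libraries were above both controls for 5 of the 10 genes in ASC and below them for 4, where the shares over all genes were 28.5% and 32.5%. Dkk2, Axin2 and Lef1 were among the 5 above, with at most 18 reads in any ASC library, and Axin2 overlapped in RPM. Wnt5a, among the 4 below, had 2 reads in ASC_HFS replicate 2. In AD, 1 gene was above and 3 were below, with shares over all genes of 24.2% and 23.5%. Without any 1 of the 4 ASC libraries, limma-trend called 0 genes in the whole table, although between 2318 and 4538 passed an unadjusted p of 0.05; the adjusted p of Sfrp1 was then 0.295 without ASC_C replicate 1, 0.216 without ASC_C replicate 2, 0.0680 without ASC_HFS replicate 1 and 0.146 without ASC_HFS replicate 2. Limma-voom on the recovered reads, which weights each library by its depth, called the 5 genes in ASC with all 4 libraries. It was also run with 1 library left out, a choice made after seeing the data. A lone library is then assumed to vary like the other group, so only sizes are given for these limma-voom fits. Their log2 differences ranged from -5.02 to -3.68 for Sfrp1, -2.97 to -1.78 for Sfrp2 and 1.63 to 2.77 for Wnt11. For Sfrp4 they ranged from 0.79 to 1.79, and for Dkk3 from -1.77 to -0.91.

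The 2 AD controls differed from each other more than the 2 AD_HFS libraries did for 8 of the 10 genes, and some differences depended on which control was kept. Without AD_C replicate 1, the log2 difference was -0.36 for Sfrp1, -1.20 for Sfrp2, -0.39 for Sfrp4 and -0.18 for Axin2. Without AD_C replicate 2 it was 0.68 for Sfrp1, -0.37 for Sfrp2, 1.01 for Sfrp4 and 0.29 for Axin2. Sfrp1, Sfrp4 and Axin2 thus changed sign with the control that was kept. Dkk3, at -0.49 and -0.52, and Sfrp2 were lower in HFS with either control. In these fits the lone library was assumed to vary like the other group, so only the sizes are given here.

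The difference between the stages was tested directly, as the diet difference in AD minus that in ASC, in 1 fit of all 8 libraries. Sfrp1 passed, at 3.95 on the log2 scale (SE 0.617, 95% interval 2.57 to 5.33, adjusted p = 0.00671). In AD its means were 25335 ± 277 normalized counts with HFS and 24159 ± 11878 with C (SD, n = 2 each), where in ASC the HFS mean was 19.7-fold lower. Over all 14018 genes of both tables, 7.53% passed with a higher and 4.93% with a lower difference in AD. Wnt11 at -1.08 (SE 0.316, 95% interval -1.79 to -0.37, adjusted p = 0.0527) and Sfrp2 at 1.33 (SE 0.511, 95% interval 0.19 to 2.48, adjusted p = 0.116) did not pass. The remaining 7 genes had adjusted p values from 0.312 for Dkk2 to 0.95 for Tcf7l2, so a call in ASC and none in AD does not show for them that the diet differences differed. Leaving out each of the 8 libraries in turn gave 3.29 to 4.61 for Sfrp1, with adjusted p from 0.00593 to 0.0404, and it passed in 8 of 8 fits. The scale is compressed to different degrees in the tables, which touches genes with few ASC reads, such as Wnt11, more than Sfrp1.

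The levels at both stages were then set side by side in RPM, a library's reads divided by its total over the 14018 shared genes and scaled to a common size. The tables were normalized apart and differed in depth, so these levels are descriptions without a test. In bulk samples, fewer cells of a type and less RNA per cell cannot be told apart. All 4 AD libraries were below all 4 ASC libraries for Sfrp2, Sfrp4, Wnt11, Lef1 and Tcf7l2, above them for Wnt5a, and overlapped them for the other 4 genes. Over all genes of both tables, 19.1% lay wholly below and 22.4% wholly above.

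**Figure D2:**
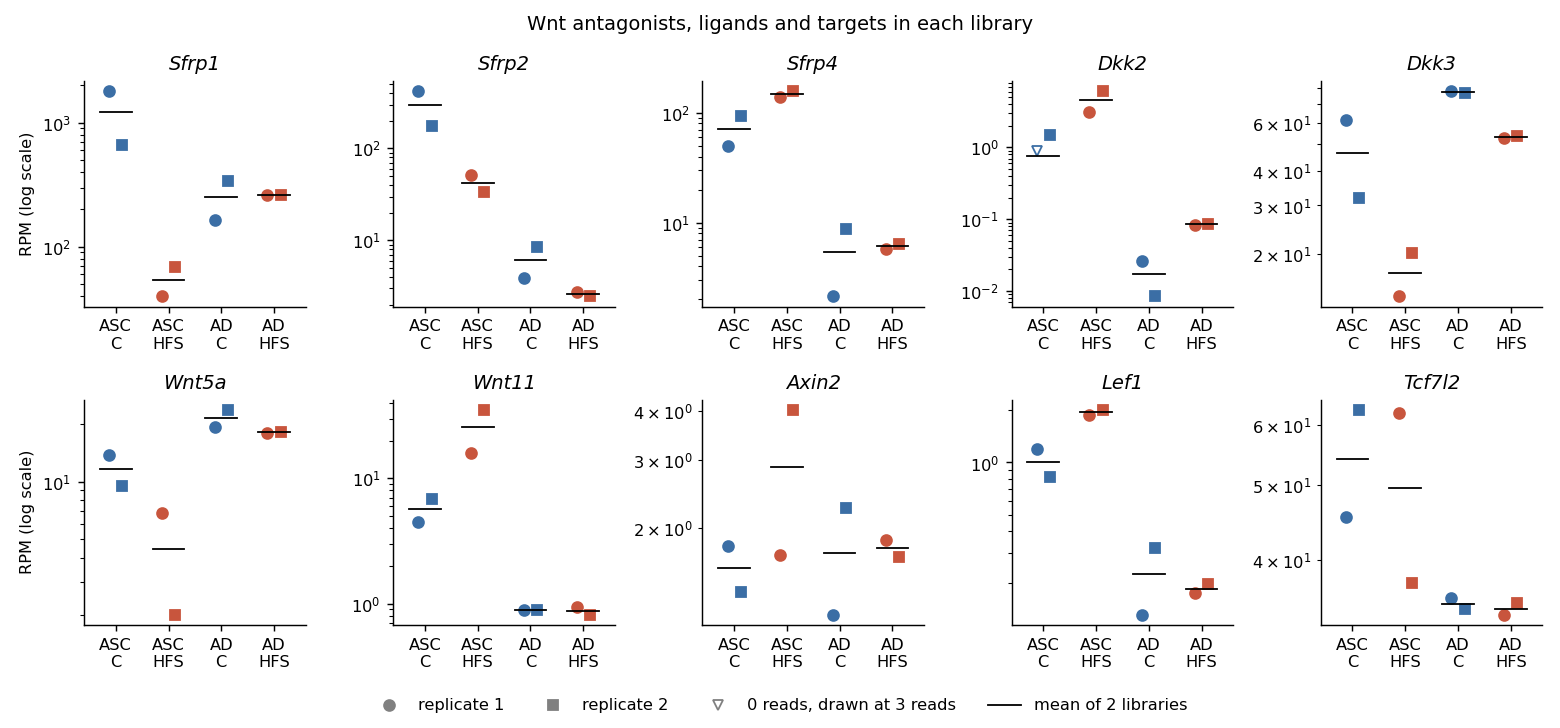
Level of each of the 10 genes in RPM over the genes of both tables, on a log axis, in the groups ASC_C, ASC_HFS, AD_C and AD_HFS. Blue is C and red is HFS, circles are replicate 1, squares replicate 2, lines group means, and the open triangle in the Dkk2 panel marks a library with 0 reads drawn at 3 reads; Sfrp1 is lowest in ASC_HFS, whereas Sfrp2 and Sfrp4 are low in all 4 AD libraries.

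Among the antagonists, Sfrp1 was ordered ASC_C, AD_HFS, AD_C and ASC_HFS from high to low, at 1229 ± 798, 261 ± 2.24, 251 ± 124 and 54.2 ± 20.3 RPM (SD, n = 2 each), and the AD groups overlapped. Its level in AD was 4.89-fold below ASC with the control diet and 4.82-fold above ASC with HFS. The stage order of Sfrp1 was therefore opposite in the 2 diets. Sfrp2 went from 296 ± 172 in ASC_C and 42.3 ± 12.8 in ASC_HFS to 6.18 ± 3.21 in AD_C and 2.61 ± 0.198 in AD_HFS, 47.9-fold and 16.2-fold lower in AD within a diet. No neighbours in that order overlapped. Sfrp4 was 71.9 ± 31.4 in ASC_C, 149 ± 12.3 in ASC_HFS, 5.41 ± 4.63 in AD_C and 6.08 ± 0.515 in AD_HFS, or 13.3-fold and 24.4-fold lower in AD, with the AD groups overlapping.

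The dickkopf genes moved apart from each other. Dkk3 was higher in AD, at 77.4 ± 1.0 RPM with C and 53.3 ± 0.564 with HFS, where ASC had 46.7 ± 20.8 and 17.1 ± 4.34. The ratios were 1.66 and 3.12, and the range of ASC_C overlapped that of AD_HFS. Dkk2 was 0.755 ± 1.07 in ASC_C, 4.56 ± 2.10 in ASC_HFS, 0.0174 ± 0.0126 in AD_C and 0.0851 ± 0.00184 in AD_HFS. Only the HFS groups give a usable stage ratio for it, 53.6-fold lower in AD, since ASC_C replicate 1 had 0 reads.

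The ligands had opposite stage orders. Wnt5a was higher in AD, at 21.5 ± 3.13 RPM with C and 18.1 ± 0.201 with HFS, where ASC had 11.6 ± 3.05 and 4.43 ± 3.41, and the ratios were 1.85 and 4.09. Wnt11 was 5.68 ± 1.67 in ASC_C and 25.7 ± 13.6 in ASC_HFS but 0.885 ± 0.00414 in AD_C and 0.881 ± 0.0935 in AD_HFS, 6.41-fold and 29.2-fold lower in AD. Of the nuclear factors, Lef1 was 4.46-fold lower in AD_C than in ASC_C and 10.4-fold lower in AD_HFS than in ASC_HFS, while Tcf7l2 was lower by 1.54-fold and 1.44-fold. Lef1 had only 2 to 11 reads per ASC library. In ASC_HFS replicate 2 Lef1 and Wnt5a had 2 reads each, under the floor of 3 reads. The Lef1 ratios and the HFS ratio of Wnt5a are therefore imprecise. Axin2 was about level, at 1.58 ± 0.300 in ASC_C, 2.87 ± 1.64 in ASC_HFS, 1.72 ± 0.743 in AD_C and 1.78 ± 0.126 in AD_HFS, and each group overlapped its neighbour in that order of levels.

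Sequence upstream of the genes was compared for the TCF/LEF core motif, since Axin2 is the readout of that family and Sfrp2 and Wnt11 are the genes called in ASC that had a RefSeq window. RefSeq (build GRCr8) gave a window from 250 bases before to 50 bases after the start for 6 of the 10 genes, and Sfrp1, Sfrp4, Dkk2 and Dkk3 were not matched. The 250 bases before the start of Axin2 (chr10:94398535-94398784), Sfrp2 (chr2:171387286-171387535) and Wnt11 (chr1:162549110-162549359), all on the plus strand, are printed 5′ to 3′, with CTTTGA in capitals.
Axin2: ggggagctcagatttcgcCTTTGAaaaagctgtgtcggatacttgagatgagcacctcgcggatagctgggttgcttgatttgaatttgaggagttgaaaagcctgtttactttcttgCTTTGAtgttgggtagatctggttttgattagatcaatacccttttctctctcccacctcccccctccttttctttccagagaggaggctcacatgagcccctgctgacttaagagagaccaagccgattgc
Sfrp2: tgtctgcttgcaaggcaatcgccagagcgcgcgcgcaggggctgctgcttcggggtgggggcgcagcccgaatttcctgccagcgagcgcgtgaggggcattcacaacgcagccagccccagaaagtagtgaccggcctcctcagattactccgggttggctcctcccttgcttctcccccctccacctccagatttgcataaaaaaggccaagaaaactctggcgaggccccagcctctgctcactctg
Wnt11: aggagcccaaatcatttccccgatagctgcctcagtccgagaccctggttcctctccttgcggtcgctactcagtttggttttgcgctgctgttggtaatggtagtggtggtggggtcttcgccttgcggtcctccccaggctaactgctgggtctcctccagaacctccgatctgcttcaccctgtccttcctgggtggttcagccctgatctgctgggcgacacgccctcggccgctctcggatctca
The Axin2 window held CTTTGA at bases 19 to 24 and 119 to 124, counted from its first base, both on the plus strand, and the second reads on as CTTTGAT. The windows of Sfrp2, Wnt11, Wnt5a, Lef1 and Tcf7l2 held 0 matches on either strand. CTTTGA occurred on either strand in 16.1% of 33469 RefSeq windows of this length, and CTTTGAT, which contains it, in 3.63%. The Axin2 window also had the lowest GC content of the 6, 45.7% with 5 CG dinucleotides, against 65.0% and 21 for Sfrp2, 61.7% and 21 for Wnt11, 70.3% and 36 for Tcf7l2, and medians over all windows of 51.7% and 7. A match is a description of the letters, and its absence says only that they are not in this window.

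The other genes of the pathway came from a list of 100 genes in 9 roles, of which 68 were measured in ASC and 78 in AD. Apart from the 10 genes, 58 were measured in ASC: 6 were higher in HFS, 8 were lower and 44 did not pass, with a median log2 difference of -0.03. These counts are near the shares of all genes in ASC, 9.41% higher and 9.7% lower, and the median of all genes was -0.04. The secreted antagonists, with Sfrp1, Sfrp2, Sfrp4 and Dkk3 among them, had 4 of 8 measured members lower and 1 higher, and a median of -0.41. Draxin, the fourth to fall with Sfrp1, Sfrp2 and Dkk3, is a secreted guidance protein that binds LRP co-receptors; it had 5 and 0 reads in the HFS libraries (adjusted p = 0.0267), so its size is imprecise.

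Ligands and receptors moved both ways in ASC, where 9.41% of all genes were called higher and 9.7% lower. Of 9 measured ligands 2 were called higher and 1 lower, and of 11 measured receptors 1 was higher and 3 were lower. Wnt2, a canonical ligand, rose 9.22-fold, from 6.11 ± 3.40 to 56.3 ± 12.6 normalized counts (SD, n = 2 each, adjusted p = 0.00387). Wnt2 had only 4 reads in ASC_C replicate 1, so its size is imprecise. Wnt4 fell (adjusted p = 0.00783), with 11 and 0 reads in the HFS libraries. Of 11 measured receptors, the frizzled receptor Fzd2 fell 7.42-fold, from 224 ± 85.1 to 30.2 ± 13.7 normalized counts (adjusted p = 0.000668), and Fzd5 rose 6.64-fold (adjusted p = 0.00969). Ptk7, a co-receptor of planar cell polarity, fell 15.9-fold, from 249.2 ± 115 to 15.7 ± 1.65 (adjusted p = 0.000173). Ror2, a receptor for Wnt5a, fell 3.07-fold (adjusted p = 0.0208). ASC_HFS replicate 2 had 4 reads for Ptk7 and 5 for Ror2, so the sizes of both falls are imprecise. Fzd5 had 7 reads in ASC_C replicate 1, so the size of its rise is imprecise too.

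Apcdd1, a membrane antagonist of Wnt signalling, had 39.8 ± 5.21 normalized counts with C and rose to 227 ± 52.7 with HFS, or 5.71-fold (adjusted p = 0.000618). Of 11 measured cytoplasmic genes 1 fell, Ctnnbip1, which keeps beta-catenin from TCF factors (2.29-fold, adjusted p = 0.0314). Of 11 measured nuclear factors 1 rose, the co-repressor Tle3 (2.26-fold, adjusted p = 0.0170). The counts for these 11 cytoplasmic genes and 11 nuclear factors are near the shares of all genes in ASC, 9.41% higher and 9.7% lower. Of 9 measured targets, Cd44 rose 3.58-fold and Myc 2.44-fold, with adjusted p values of 0.00378 and 0.0133, while Ccn4 fell 6.81-fold and Ccnd1 2.21-fold, with adjusted p values of 0.00269 and 0.0241. Ccn4 had 3 reads in ASC_HFS replicate 2, at the floor, so its size is imprecise. The targets thus moved in both directions, and Axin2 did not pass.

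In AD, 0 of the 78 measured pathway genes passed limma-trend, against 8 at an unadjusted p below 0.05; limma-voom called 0, against 9. The lowest adjusted p was that of Wnt4, 0.0819 at a ratio of 0.527, which was also lower in ASC. Of the 67 pathway genes in both tables, the diet difference was higher in AD for 5, lower for 7 and not called for 55, where 7.53% of all genes of both tables were called higher and 4.93% lower. The count of 5 higher is near that share, and the median of AD minus ASC was -0.04 against 0.07 for all genes.

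**Figure D3:**
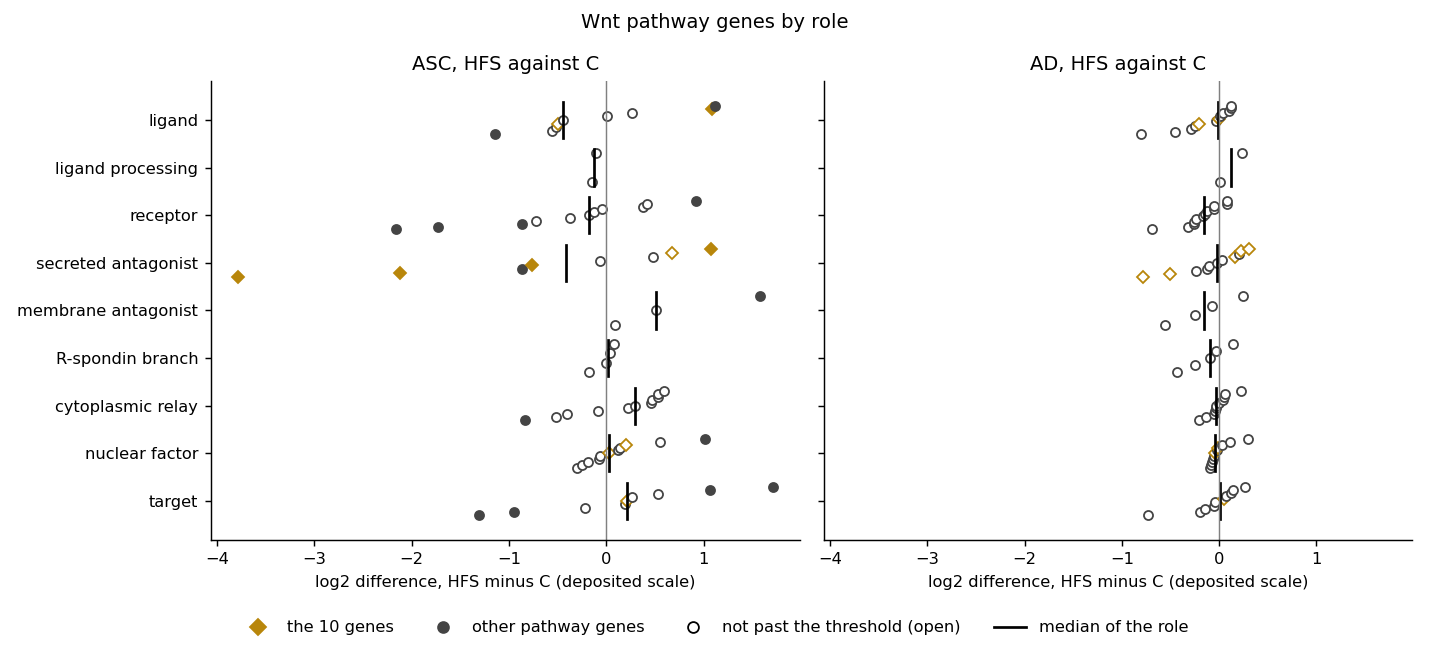
Log2 difference of HFS minus C, on the scale of log2(deposited value + 1), for the measured pathway genes grouped by role, with ASC and AD in separate panels. Diamonds are the 10 genes and circles the other pathway genes, filled symbols passed an adjusted p of 0.05, and bars are role medians; in ASC the secreted antagonists have a median of -0.41 with Sfrp1 lowest at -3.79, and in AD every symbol is open.

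In a search over 9595 genes with at least 5 RPM on average, the genes whose log2 RPM most resembled each called gene over the 8 libraries were named. They were Lrwd1, P3h1 and Mrps16 for Sfrp1 (r = 0.997, 0.990 and 0.985), Eif3d, Svbp and Sin3b for Sfrp2 (r = 0.992, 0.989 and 0.988) and Sphk1, Ackr4 and Gadd45b for Sfrp4 (r = 0.996, 0.995 and 0.993). For Dkk3 they were Hdhd5, Tfpi and Rbbp9 (r = 0.991, 0.987 and 0.987), and for Wnt11 they were Hnrnpab, Angptl1 and Plin2 (r = 0.997, 0.995 and 0.995). These are the highest of many correlations over 8 points that share stage, diet and depth. A correlation takes no account of the size of change: Eif3d ran from 85.0 to 128 RPM, where Sfrp2 ran from 2.47 to 418.

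Marker genes of other cell types moved with the diet in ASC. Summed macrophage and myeloid markers were at 554 and 629 RPM in ASC_C and 2220 and 2396 in ASC_HFS, with 8 of 10 called higher. Endothelial markers went from 215 and 420 to 1053 and 1123, with 7 of 7 measured called higher, and epithelial and mesothelial markers from 83.6 and 94.0 to 260 and 262, with 6 of 7 higher and 1 lower. Markers of mesenchymal progenitors, which define the labelled cell type and include Pdgfra, Cd34 and Col1a1, were present in all libraries at 26389 and 29542 with C and 45014 and 47646 with HFS; of 11, 3 were higher and 4 lower. Adipocyte markers were at 2381 and 5540 with C and 5626 and 4439 with HFS (3 of 10 higher), and smooth muscle markers at 231, 239, 204 and 122 (2 of 6 higher, 1 lower). Of the measured markers, Msln and Cnn1 were at 0 reads in ASC_HFS replicate 2, and Pecam1 and Upk3b were not listed in the ASC table. The part of these cells in the differences of Sfrp1, Sfrp2, Sfrp4, Dkk3 and Wnt11 was not tested.

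In AD, adipocyte markers were at 29059 to 36078 RPM in the 4 libraries, above every ASC library, and 0 of 10 differed by diet (1 at an unadjusted p below 0.05). Macrophage markers were at 274 and 443 with C and 2475 and 2472 with HFS, with 6 of 10 called higher (3 by limma-voom). Progenitor markers ran from 14665 to 23767, endothelial markers from 11 to 25.4, epithelial markers from 11.7 to 13.5 and smooth muscle markers from 231 to 569, with 0 called in each list by limma-trend or limma-voom and 6, 5, 0 and 2 members at an unadjusted p below 0.05. The macrophage markers thus moved with the diet in AD as well, and their part in the values of the 10 genes was not tested.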

How the data were processed

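RNA of 8 libraries was sequenced as 50 bp paired-end reads. Per the submitters' processing notes, FastQC, STAR, featureCounts and DESeq2 were used, and the genome build is named as mRatBN7.2 and as rn7. Versions and settings are not given in the sources used here. The labels name polyA RNA and also an rRNA depletion kit. The deposited values are a signal, 1 table per stage. From their form, they are the antilog, to base 2, of the authors' variance-stabilized, size-factor normalized counts. The lowest value of a table, 34.7 for ASC and 107 for AD, means 0 reads. Solving the transformation for reads gave whole numbers for 100% of values (tolerance 1e-06). Recovered reads gave depths, normalized counts and ratios. Floors of 3 reads cover counting error only.

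HFS was compared with C in each table by limma-trend on log2(value + 1), two-sided, in R 4.3.3 with limma 3.58.1 and 2 residual degrees of freedom pooled across genes; p values were adjusted by Benjamini-Hochberg over the whole table. The mean value had to be at least 10, which removed no gene. The difference between stages was a contrast of 4 group means. The fits were also run on simulated counts in which all genes and both diets of a table shared the same spread. The pairs of libraries here differed in spread, so that run does not check the p values of these data. Tables were made with pandas 2.3.3 and numpy 2.4.6, and figures with matplotlib 3.10.9, in Python 3.11.15. The 10 genes and the lists of 100 pathway genes and 6 cell types were chosen with earlier results of these data known. Pathway genes outside the 10 are named where they passed a test, and the 3 most alike genes are named for each called gene. Alternatives were pseudocounts of 0.5 and 5, no filter, a mean of at least 50, upper quartile scaling, quantile normalization, log2 RPM, a replicate block, limma-voom on recovered reads and each library left out. The replicate block with crossed numbers and limma-voom with a library left out were chosen after seeing the data. No genome was used, and sequences come from RefSeq windows on GRCr8.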

Additional observations from a re-analysis of the deposited data

Results flagged for a closer look

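The diet difference differed between the stages, by the contrast of AD minus ASC in limma-trend, for 12 of the 67 pathway genes in both tables, 5 higher and 7 lower in AD. Over all 14018 genes of both tables, 7.53% were called higher and 4.93% lower, so the 5 higher are near the share of all genes. Sfrp1 was the gene of the 10 among them, at 3.95 on the log2 scale (adjusted p = 0.00671). The difference was also higher in AD for Ptk7 at 2.10 (adjusted p = 0.0129), Fzd2 at 1.48 (0.0204), Ccn4 at 1.27 (0.0453) and Ctnnbip1 at 1.06 (0.0491). Each of these 5 genes was called lower in ASC and not called in AD.

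It was lower in AD for Apcdd1 at -1.82 (adjusted p = 0.00495), Myc at -1.80 (0.0332), Cd44 at -1.57 (0.0276), Wnt2 at -1.41 (0.00904), Fzd6 at -1.12 (0.0251), Tle3 at -1.08 (0.0269) and Fzd5 at -0.97 (0.0335). All but Fzd6 were called higher in ASC. Fzd6, a frizzled receptor, passed in neither table alone: it had 11.4 ± 2.96 normalized counts with C and 27.3 ± 2.43 with HFS in ASC, and 313 ± 91.5 with C and 132 ± 22.8 with HFS in AD (SD, n = 2 each). Its libraries did not overlap by diet at either stage, and the order was opposite. The ASC values of Fzd6 came from only 10 and 30 reads with C and 41 and 8 with HFS. Opposite orders without overlap were also seen for Wnt2, Apcdd1, Ctnnbip1, Tle3 and Myc, and for Bambi and Apc, which were not called. Being called by this contrast favours opposite orders, and the share of such orders over all genes was not computed. Over all genes, HFS lay wholly above C for 28.5% and below for 32.5% in ASC, and for 24.2% and 23.5% in AD. Wnt2 had 18.1 ± 8.40 normalized counts in AD_C and 4.43 ± 0.502 in AD_HFS (adjusted p = 0.296), the latter from 5 and 4 reads. Groups of 2 libraries allow no check for single outlying samples.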

How the results depend on the processing

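In ASC, Sfrp1, Sfrp2, Sfrp4 and Wnt11 passed in all 10 settings that kept every library. Of these settings, no filter only repeated the main fit, since the filter removed no gene. Crossed numbers were chosen after seeing the data. Dkk3 did not pass with quantile normalization (adjusted p = 0.0689), and Dkk2 passed with a mean of at least 50 (0.0476) and with crossed numbers (0.0309). Log2 RPM moved the median of all genes in ASC by -0.19 and called 1044 genes higher and 1882 lower, in place of 1345 and 1386; for the difference between stages it moved the median by 0.19 and called 1535 higher and 610 lower, in place of 1056 and 691. Tcf7l2 in ASC reversed to -0.0082 with upper quartile scaling and -0.15 with log2 RPM, where its difference between stages was 0.13. In AD, 244 genes became 95 with upper quartile scaling, 150 with limma-voom and 661 with the replicate block. There, Wnt11 became -0.067 and Axin2 -0.065 with quantile normalization, and Wnt11 -0.0042 with log2 RPM. The difference between stages was called for 2 of the 10 genes with quantile normalization (Sfrp1 and Wnt11) and for 3 with the replicate block (Sfrp1, Sfrp2 and Wnt11). The cause was not tested.

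Same-numbered libraries had correlated deviations of -0.123 in ASC and 0.00141 in AD, and the labels link no numbers, so they were not used as pairs. The replicate block called 2976 genes and 5 of the 10 in ASC, and crossed numbers called 3634 genes and 6 of the 10.

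With a library left out, by limma-trend and limma-voom, called genes ranged from 0 to 3643 in ASC (members 0 to 5), from 0 to 9830 in AD (members 0 to 6) and from 425 to 2382 for the difference between stages (members 1 to 2). Log2 differences ranged from -0.32 to 0.46 for Tcf7l2 in ASC. In AD they ranged from -0.36 to 0.69 for Sfrp1, -0.51 to 1.51 for Sfrp4, -0.11 to 0.11 for Wnt11, -0.31 to 0.59 for Axin2, -0.76 to 0.47 for Lef1 and -0.033 to 0.018 for Tcf7l2. For the difference between stages they ranged from -0.043 to 0.57 for Dkk3, -0.39 to 0.076 for Axin2 and -0.32 to 0.24 for Tcf7l2. Depth limits Dkk2, Lef1, Axin2 and Wnt5a in ASC and Dkk2 in AD. Among the other pathway genes named, depth limits Wnt2, Wnt4, Draxin, Fzd5, Fzd6, Ptk7, Ror2 and Ccn4 in ASC and Wnt2 in AD.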
